A study of Rattus norvegicus with 28 samples.

Results

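Havcr1, the rat gene for kidney injury molecule-1, was followed in 28 female rat kidney arrays. It was chosen by its symbol in the array's probe annotation, and also because its level was already known to separate the groups, so its own group values are given as a description without a test. It was measured by 1 of 31042 probe sets that are not array controls (Affymetrix probe set 1387965_at, gene ID 286934, chromosome 10 in RefSeq's GRCr8 assembly) and is 1 of 14217 genes with a named probe set. The rats belonged to 2 inbred strains, SBH/y and SBN/y, known as the hypertension-prone and the hypertension-resistant Sabra rats. In each strain some rats had 1 kidney left after uninephrectomy, which was done after weaning, and others kept 2 kidneys after a sham operation. The 4 groups were uninephrectomized SBH/y, uninephrectomized SBN/y, sham-operated SBH/y and sham-operated SBN/y, with 7 arrays each. All rats ate standard chow and were 5 months old, 4 months after the operation, and the series concerns proteinuria. RNA came from the kidney as a whole, so fewer cells of a type and less RNA per cell cannot be told apart. Samples are numbered within each group, but nothing says that each array is a separate animal, so every p-value measures the spread between these samples.

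The protein encoded by Havcr1, also called TIM-1, is a membrane receptor that binds phosphatidylserine on dying cells. It is scarce in the healthy kidney and appears on the luminal side of injured proximal tubule cells, where it lets the epithelium take up apoptotic cells and debris. Its outer part is cut off by metalloproteinases and passes into the urine, which is why it serves as a marker of tubular injury in rats and humans. It is also known on activated T cells and on B cells.

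Havcr1 was high in 1 of the 4 groups. In uninephrectomized SBH/y kidneys the log2 value had a lowest of 6.64, a median of 7.19 and a highest of 8.81, with a mean of 7.53 ± 0.78 (SD, n = 7). In uninephrectomized SBN/y kidneys the lowest was 4.38, the median 5.09 and the highest 5.71, with a mean of 5.13 ± 0.48. Every one of the 7 uninephrectomized SBH/y arrays lay above every other array, with a gap of 0.93 to the highest uninephrectomized SBN/y array. Sham-operated SBH/y kidneys had a lowest value of 4.36, a median of 4.78 and a highest of 5.07 (mean 4.74 ± 0.26). In sham-operated SBN/y kidneys the lowest was 4.27, the median 4.58 and the highest 4.86 (mean 4.59 ± 0.20). The typical probe set of an array had a value between 5.72 and 5.77, the range of the array medians. The 7 uninephrectomized SBH/y arrays read above the highest of these medians and the other 21 arrays read below the lowest.

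**Figure D1:**
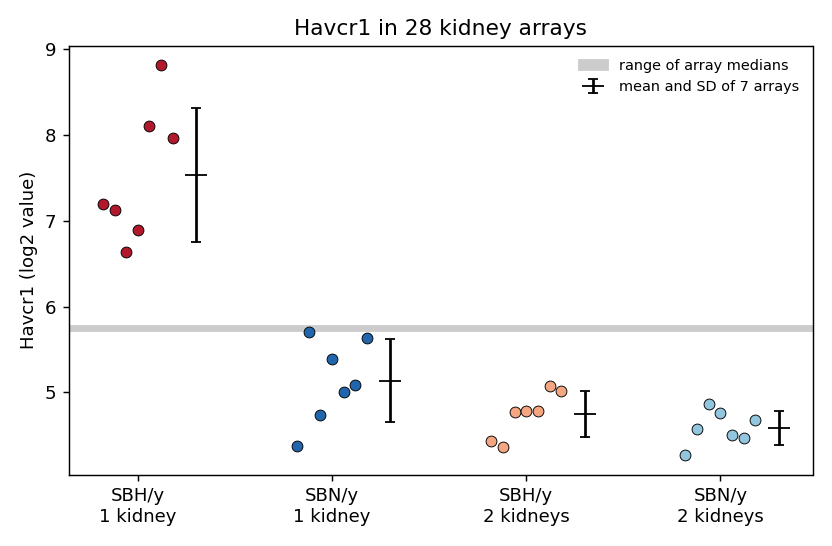
Log2 value of Havcr1 (y axis) in each of the 28 arrays by group (x axis); points are arrays, the bar beside each group is the mean with its SD, and the grey band is the range of the array medians. The uninephrectomized SBH/y arrays lie between 6.64 and 8.81, all above the band, and the other 3 groups lie between 4.27 and 5.71.

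As log2 differences from a limma model with 1 mean per group (± SE), Havcr1 was higher by 2.40 ± 0.23 in the uninephrectomized kidneys of SBH/y than in those of SBN/y, a ratio of 5.27. Against sham-operated SBH/y kidneys the difference was 2.79 ± 0.23, a ratio of 6.91. Uninephrectomized minus sham-operated SBN/y kidneys differed by 0.54 ± 0.23, and 5 of the 7 uninephrectomized arrays lay above every sham-operated array. Between the sham-operated strains the difference was 0.15 ± 0.23, SBH/y minus SBN/y, and the ranges overlapped in most of their length. The effect of uninephrectomy in SBH/y exceeded that in SBN/y by 2.25 ± 0.33 log2 units. Each SE rests on 1 spread shared by the 4 groups, although their SDs ran from 0.20 to 0.78. It understates the spread of uninephrectomized SBH/y and overstates that of the sham-operated groups. In the order of the means, uninephrectomized SBH/y stood first, and the next neighbours, uninephrectomized SBN/y, sham-operated SBH/y and sham-operated SBN/y, overlapped each other.

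The arrays within uninephrectomized SBH/y were also the most spread. Replicates 6, 5 and 7 had log2 values of 8.81, 8.10 and 7.97, and the other 4 arrays lay between 6.64 and 7.19. The SD of 0.78 compares with 0.48 in uninephrectomized SBN/y and with 0.26 and 0.20 in sham-operated SBH/y and SBN/y. These replicate numbers are names and carry no order.

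A second property also moved with the groups. The clock gene score is the mean centred log2 value of 11 circadian clock genes, 3 that peak with Bmal1 counted as positive and 8 of the opposite phase counted as negative. It lay between -1.18 and -0.74 in 6 uninephrectomized SBH/y arrays and at 0.69 in replicate 2. In uninephrectomized SBN/y it lay between 0.16 and 0.55 in 6 arrays and at -0.88 in replicate 6. The sham-operated kidneys lay between 0.43 and 0.69 in SBH/y and between -0.31 and 0.40 in SBN/y. Havcr1 read 7.12 in the SBH/y array with a score of 0.69 and 5.09 in the SBN/y array with a score of -0.88. With the score as a covariate, Havcr1 differed by 2.36 between the uninephrectomized strains and by 2.74 from sham-operated SBH/y. Without these 2 arrays the differences were 2.46 and 2.86. These are values of the gene as it was chosen and carry no test, and the part of the clock in the Havcr1 difference was not tested. In SBH/y the score nearly followed the kidney number, so a fit that holds it estimates the uninephrectomy contrast less precisely. A call lost with the score as a covariate can therefore come without a smaller difference.

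**Figure D2:**
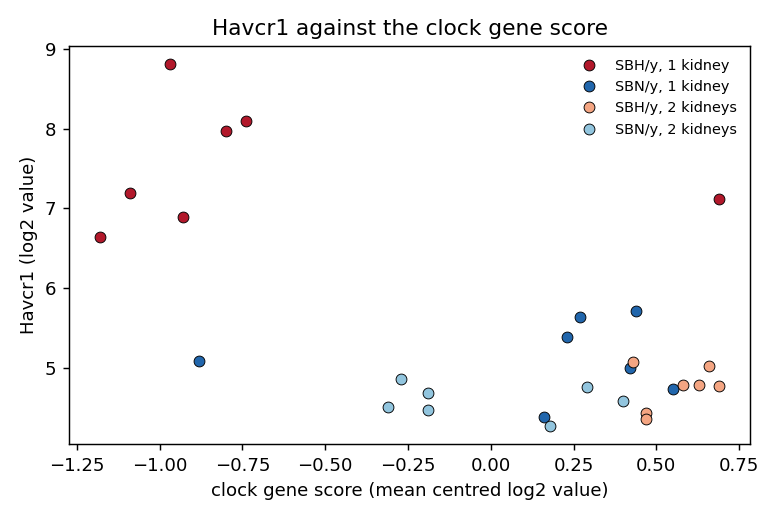
Log2 value of Havcr1 (y axis) against the clock gene score (x axis, mean centred log2 value), 1 point per array, coloured by group. The uninephrectomized SBH/y array on the right has a score of 0.69 and a Havcr1 value of 7.12, and the uninephrectomized SBN/y array on the left has a score of -0.88 and a Havcr1 value of 5.09.

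None of the other TIM family genes, Havcr2, Timd2 and Timd4, had a probe set with its symbol alone, so none has a value here. RefSeq places Timd2 before and Timd4 after Havcr1 on chromosome 10, together with the related genes Havcr1l1 and Havcr1l2. Whether the Havcr1 probes also match these relatives was not tested. Of the 10 nearest measured neighbours, 3 differed between uninephrectomized SBH/y and SBN/y kidneys by limma, against 26.8% of all genes (3808 of 14217). Cyfip2, a regulator of the actin network, was lower (-0.69 ± 0.06, adjusted p = 3.36e-10). Thg1l, a tRNA-modifying enzyme, was higher by 0.29 ± 0.07 (adjusted p = 0.00279), and Rack1, a ribosomal scaffold protein, by 0.11 ± 0.04 (adjusted p = 0.039). Rack1 no longer passed with the clock score as a covariate (adjusted p = 0.172). The neighbours Med7, Adam19, Lsm11, Trim41, Irgm, Fam98b-ps1 and Btnl9 had differences between -0.10 and 0.16 and did not pass. A difference of the size seen at Havcr1 was not seen at these neighbours.

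A stretch before 1 annotated start of Havcr1 is shown because STAT3 and AP-1 family factors are among those studied as regulators of injury genes in tubular cells, and Stat3 and the AP-1 relative Atf3 were measured. RefSeq's promoter table for GRCr8 gives the 250 bases before that start as chr10:31629528-31629777 on the plus strand. The start lies inside the span that RefSeq's gene table gives for Havcr1, so the stretch is not the region before the outermost start, which was not searched. The letters are in lower case throughout because no searched motif was found:
Havcr1 promoter: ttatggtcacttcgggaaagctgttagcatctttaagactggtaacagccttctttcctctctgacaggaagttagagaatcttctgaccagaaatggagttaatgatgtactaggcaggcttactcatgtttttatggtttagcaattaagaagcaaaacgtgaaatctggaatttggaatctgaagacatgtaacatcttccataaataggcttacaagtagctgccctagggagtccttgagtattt
The STAT motif TTCNNNGAA, read on both strands, had 0 matches here and occurred in 7.67% of 33469 promoters of the same length. The AP-1 motif TGANTCA had 0 matches and occurred in 6.34%, and the TATA box TATAAA had 0 matches and occurred in 12.9%. Stat3, the signal transducer itself, read 8.23 in uninephrectomized SBH/y and 9.25 in uninephrectomized SBN/y kidneys by its brighter probe set (difference -1.02 ± 0.07, limma adjusted p = 1.05e-12). A second Stat3 probe set gave a difference of 0.12 (adjusted p = 0.146), so the probe sets disagreed. The brighter Stat3 probe set also differed between the sham-operated strains, 8.11 in SBH/y and 9.18 in SBN/y (-1.07 ± 0.07, adjusted p = 3.58e-13). Atf3, a stress-induced transcription factor that can pair with AP-1 proteins, averaged 4.64 in uninephrectomized SBH/y and 3.78 in uninephrectomized SBN/y kidneys (0.86 ± 0.07, adjusted p = 1.52e-10). Its uninephrectomy difference in SBH/y was 0.46 ± 0.07 (adjusted p = 0.000111), and its difference between the sham-operated strains was 0.37 ± 0.07 (adjusted p = 0.000401).

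The genes with values most like those of Havcr1 were chosen by the highest Pearson correlation over the 28 arrays and are described without a test, since the 7 high arrays set most of that correlation. Spp1, which encodes the secreted phosphoprotein osteopontin, stood first with r = 0.947. A2m, the protease inhibitor alpha-2-macroglobulin, followed with 0.933 and Adamts1, a secreted metalloproteinase, with 0.918. Gpnmb, a glycoprotein of lysosomes and phagocytes, had 0.914, the lipoprotein receptor gene Olr1 had 0.899 and the ubiquitin-like modifier gene Ubd had 0.890. Vim (vimentin, an intermediate filament) had 0.888 and Mgp (matrix Gla protein, an inhibitor of calcification) had 0.882. After each group's mean was taken away, the correlation over the 28 arrays was 0.713 for Spp1, 0.689 for A2m and between 0.353 and 0.573 for the other 6.

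Spp1 is shown in full. Its log2 value in uninephrectomized SBH/y kidneys had a lowest of 12.16, a median of 12.40 and a highest of 12.89. Uninephrectomized SBN/y kidneys had a lowest of 11.53, a median of 11.67 and a highest of 12.07. In sham-operated SBH/y the range was 11.52 to 11.67 and in sham-operated SBN/y 11.40 to 11.99. The lowest uninephrectomized SBH/y array was thus above every array of the other 3 groups, as for Havcr1. The difference was 0.75 ± 0.10 between the uninephrectomized strains and 0.86 ± 0.10 between uninephrectomized and sham-operated SBH/y kidneys, against 2.40 ± 0.23 and 2.79 ± 0.23 for Havcr1 on the same log2 scale. Among the genes most like Havcr1, Ubd had the largest strain difference after uninephrectomy, 1.42 ± 0.12, followed by Gpnmb with 1.17 ± 0.11 and A2m with 0.85 ± 0.12.

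Within uninephrectomized SBH/y kidneys, no gene's slope on the Havcr1 level passed correction over the whole array. In a limma model with a slope in each uninephrectomized group, 0 of 31041 probe sets were called at an adjusted p of 0.05 (0% of the array), and 4184 (13.5%) had an unadjusted p below 0.05, of which 2354 were positive and 1830 negative. In uninephrectomized SBN/y kidneys 0 were called and 1415 (4.56%) had an unadjusted p below 0.05. The difference between the 2 slopes was called for 0 probe sets, with 1007 (3.24%) at an unadjusted p below 0.05. The lowest adjusted p was 0.0866 in SBH/y, 0.982 in SBN/y and 0.847 for the difference. Quantile normalization gave 2 calls in SBH/y and a trended, robust variance gave 3. Without replicate 5 of uninephrectomized SBH/y, 182 probe sets were called, 102 positive and 80 negative, and leaving out any other array gave 0 or 1.

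The 5 genes with the smallest p in each direction are named next. Spp1 had the strongest positive slope by p, 0.33 ± 0.06 log2 units per log2 unit of Havcr1 (limma adjusted p = 0.127). The others were Cftr, a chloride channel (0.35 ± 0.07), Cdca3, a cell division gene (0.32 ± 0.06), Evi2b, a membrane protein of leukocytes (0.28 ± 0.05), and Kiaa0408L (0.24 ± 0.04), with adjusted p between 0.141 and 0.153. In the opposite direction Mmp9, a gelatinase that degrades matrix, had a slope of -0.45 ± 0.07 (adjusted p = 0.0866). Tro (trophinin) had -0.44 ± 0.07 (adjusted p = 0.0917), Mfsd3, a putative transporter, -0.35 ± 0.06, Hid1, a Golgi-associated protein, -0.28 ± 0.05, and Zbtb7b, a transcription factor, -0.23 ± 0.04. Second probe sets disagreed for 2 of these genes in SBH/y: Hid1 had r = 0.42 by the second and -0.93 by the first, and Kiaa0408L had -0.52 by the second and 0.94 by the first. The slopes of these 10 genes in uninephrectomized SBN/y lay between -0.18 and 0.25, with adjusted p between 0.982 and 0.998. Without replicate 5 the slope of Spp1 was 0.35 (adjusted p = 0.0364) and that of Mmp9 -0.44 (adjusted p = 0.0343). With any other uninephrectomized SBH/y array left out, neither passed. Without replicate 3 the slopes were 0.34 (adjusted p = 0.341) and -0.51 (adjusted p = 0.0809). Without replicate 6, the array highest in Havcr1, they were 0.33 and -0.52, the latter with an adjusted p of 0.79. Mmp9 also passed with all arrays under quantile normalization (limma adjusted p = 0.0253) and with the trended, robust variance (adjusted p = 0.0364). Tro passed in the second of these (adjusted p = 0.0313), and Spp1 in neither (adjusted p = 0.0687 and 0.0664).

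The values of Mmp9, which was named for the lowest p of a negative slope that did not pass in the main fit, are given by array. It read 5.04, 4.91 and 5.11 in replicates 7, 6 and 5, the 3 arrays highest in Havcr1, and 5.62 to 5.82 in the other 4. Its mean was 5.41 in uninephrectomized SBH/y and 3.87 in uninephrectomized SBN/y (1.53 ± 0.13, limma adjusted p = 7.28e-11), and 5.90 in sham-operated SBH/y (-0.49 ± 0.13 for uninephrectomized minus sham-operated, adjusted p = 0.0132). With the clock score as a covariate the second of these was -0.52, so no smaller, but no longer passed (limma adjusted p = 0.385). A second, dimmer Mmp9 probe set had r = -0.75 with Havcr1 in uninephrectomized SBH/y and the same directions, 0.39 (adjusted p = 0.00185) and -0.32 (adjusted p = 0.0274). By the first probe set sham-operated SBH/y also exceeded sham-operated SBN/y (mean 4.37), by 1.53 ± 0.13 (adjusted p = 8.09e-11). In SBN/y, uninephrectomized minus sham-operated was -0.49 ± 0.13 (adjusted p = 0.0793), and the interaction was not called (adjusted p = 0.999).

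**Figure D3:**
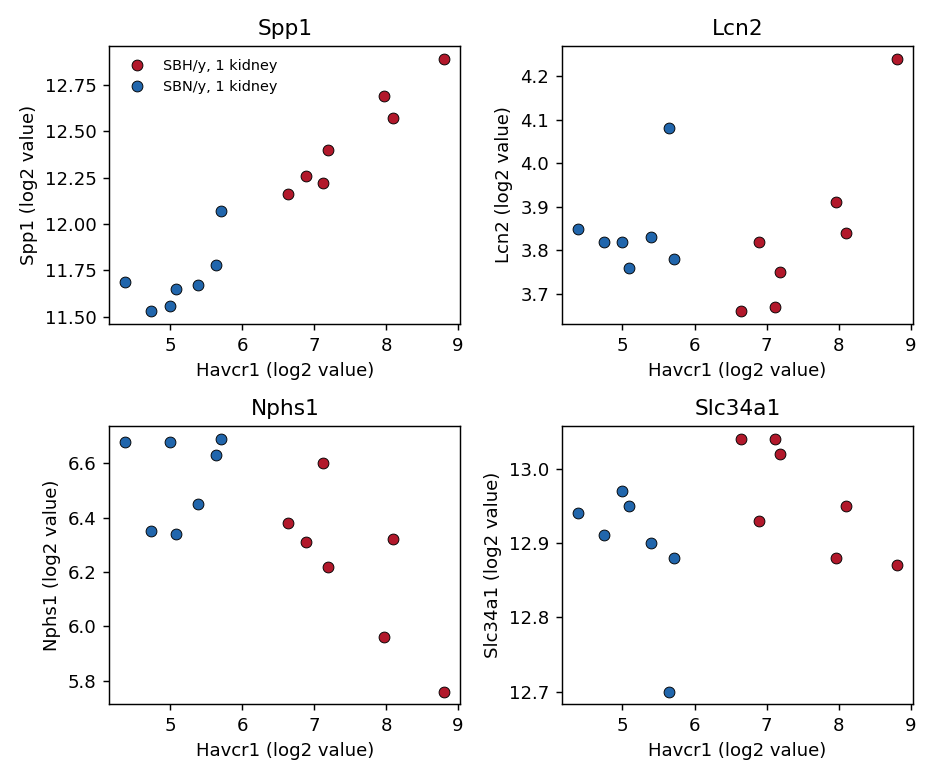
Log2 values of Spp1, Lcn2, Nphs1 and Slc34a1 (y axes) against the log2 value of Havcr1 (x axes) in the uninephrectomized arrays, 7 of SBH/y and 7 of SBN/y. In SBH/y the correlation is 0.97 for Spp1, 0.88 for Lcn2, -0.77 for Nphs1 and -0.74 for Slc34a1.

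A panel of 23 measured kidney genes was then set against Havcr1 in each uninephrectomized group by two-sided exact permutation of the 7 arrays (5040 orders), 46 tests in all. None passed Benjamini-Hochberg correction over the 46, by Pearson or by Spearman correlation, with lowest adjusted p of 0.073 and 0.155. In SBH/y 13 correlations were positive and 10 negative, and in SBN/y 14 and 9. At an unadjusted p below 0.05 there were 4 Pearson correlations in SBH/y and 1 in SBN/y, and 3 and 0 by Spearman.

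Among injury markers of the panel, Spp1 had r = 0.97 in uninephrectomized SBH/y kidneys (exact permutation p = 0.00159, adjusted p = 0.073) and rho = 0.93 (exact permutation p = 0.00675, adjusted p = 0.155). Without the 2 arrays farthest from the median of Havcr1 its r was 0.96. Spp1 had r = 0.66 in uninephrectomized SBN/y kidneys (exact permutation p = 0.0972, adjusted p = 0.459). Lcn2, a lipocalin that binds siderophores and is another urinary injury marker, had r = 0.88 in SBH/y (exact permutation p = 0.00694, adjusted p = 0.16) and rho = 0.86, and r = 0.76 without the 2 farthest arrays. Its level was dim, with a mean of 3.84 in uninephrectomized SBH/y and 3.85 in uninephrectomized SBN/y kidneys (difference -0.01 ± 0.09, limma adjusted p = 0.969). Clu, the secreted chaperone clusterin, had r = 0.83 in SBH/y (exact permutation p = 0.0167, adjusted p = 0.256), and 0.56 without the 2 farthest arrays. The remaining injury genes had positive r in SBH/y, with 0.73 for the metalloproteinase inhibitor Timp1, 0.71 for the hyaluronan receptor Cd44 and 0.58 for both Gpnmb and Vim, except Krt19 at -0.19. A second Cd44 probe set had r = 0.86 in SBH/y and -0.89 in SBN/y, where the first had 0.47.

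Genes of differentiated kidney cells mostly had negative correlations. Slc34a1, the phosphate transporter of the proximal brush border, had r = -0.74 in uninephrectomized SBH/y (exact permutation p = 0.0679, adjusted p = 0.446) and -0.60 in uninephrectomized SBN/y. A second Slc34a1 probe set had r = 0.22 and 0.28, the opposite sign in both. Lrp2 and Cubn encode megalin and cubilin, the receptors that recover filtered protein. Lrp2 had r = -0.62 and rho = -0.93 in SBH/y (exact permutation p = 0.00675 for rho, adjusted p = 0.155), although its mean was 12.5 in all 4 groups. Cubn had r = -0.34 in SBH/y and -0.77 in SBN/y, the lowest p of the panel in SBN/y (exact permutation p = 0.0474, adjusted p = 0.436). Nphs1, the slit diaphragm protein nephrin of podocytes, had r = -0.77 in SBH/y (exact permutation p = 0.0423, adjusted p = 0.436) and 0.15 in SBN/y. Its log2 value was 5.76 and 5.96 in the SBH/y replicates 6 and 7, and 6.22 to 6.60 in the other 5.

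**Figure D4:**
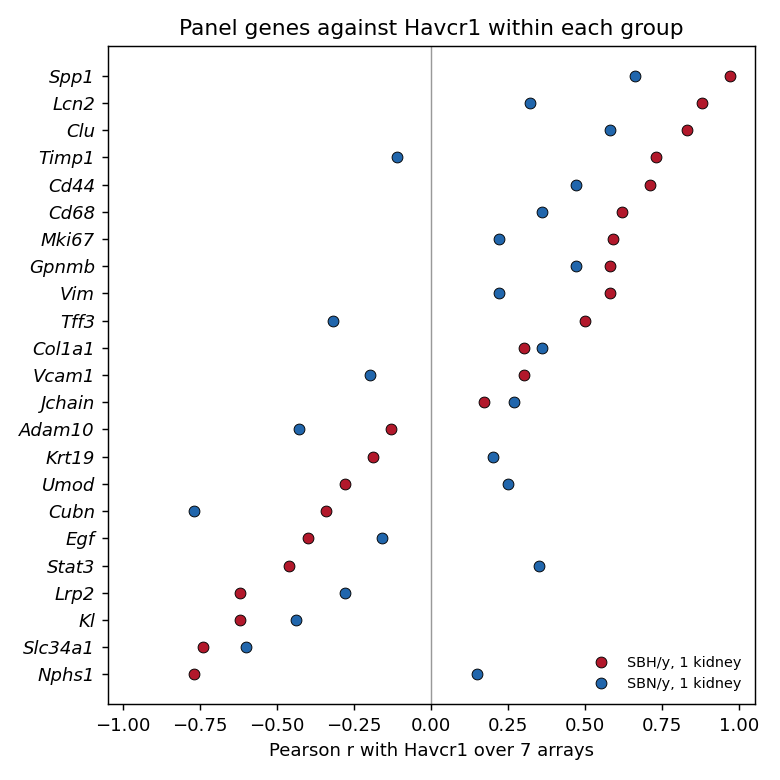
Pearson correlation with Havcr1 (x axis) of 23 panel genes (y axis, ordered by the SBH/y value) over 7 uninephrectomized SBH/y arrays and 7 uninephrectomized SBN/y arrays. Spp1 is at the top with 0.97 in SBH/y and 0.66 in SBN/y, and Nphs1 at the bottom with -0.77 in SBH/y and 0.15 in SBN/y.

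Other tubular injury genes were more often higher than lower in uninephrectomized SBH/y kidneys, and also in sham-operated SBH/y kidneys against SBN/y. Of 37 measured members, 18 were higher and 3 lower than in uninephrectomized SBN/y kidneys by limma, where 14.9% of all genes were higher and 11.9% lower. Against sham-operated SBH/y kidneys 16 of 37 were higher and 1 lower, where 4.85% of all genes were higher and 5.51% lower. The median log2 differences were 0.23 and 0.16, against 0.00 and 0.01 over all genes. Between the sham-operated strains, where Havcr1 was low in both, 13 of 37 were higher and 5 lower, with 11.8% of all genes higher and 9.69% lower. In SBN/y, uninephrectomized against sham-operated, 0 of 37 passed in either direction, where 0.288% of genes were higher and 0.317% lower. The interaction was higher for 6 of 37 and lower for 0, where 0.964% of all genes had a higher and 1.1% a lower one. The shares over all genes given here are the background for every list that follows, as counted in this same fit.

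Several of these injury genes passed in both SBH/y contrasts. Areg, an EGF receptor ligand, averaged 5.18 in uninephrectomized SBH/y, 3.60 in uninephrectomized SBN/y and 3.89 in sham-operated SBH/y (1.58 ± 0.15, adjusted p = 1.32e-09, and 1.29 ± 0.15, adjusted p = 1.65e-06). Gpnmb averaged 7.35, against 6.17 in uninephrectomized SBN/y and 6.19 in sham-operated SBH/y. Timp1 was higher by 0.60 ± 0.08 and 0.53 ± 0.08, Cd44 by 0.56 ± 0.08 and 0.50 ± 0.08 and Vim by 0.50 ± 0.06 in the strain contrast and 0.49 ± 0.06 in the uninephrectomy contrast. Clu passed in the uninephrectomy contrast alone, with 0.51 ± 0.07 (adjusted p = 1.18e-05), and differed by -0.10 ± 0.07 between the uninephrectomized strains (adjusted p = 0.366). A second, dimmer Clu probe set gave 0.21 in the uninephrectomy contrast and did not pass (adjusted p = 0.13). The clock score moved with the uninephrectomy contrast: with it as a covariate the counts were 17 higher and 1 lower between the strains, and 4 higher and 0 lower against sham-operated SBH/y. In that fit 9.92% of all genes were higher and 7.34% lower between the strains, and 0.197% higher and 0.134% lower against sham-operated SBH/y. The part of the clock was not tested. Gpnmb (0.85) and Clu (0.52) then still passed against sham-operated SBH/y, as did Spp1 (0.87), and Areg (0.63), Timp1 (0.47), Cd44 (0.28) and Vim (0.26) did not.

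Proximal tubule genes, the markers of the cells that are known to make Havcr1 after injury, were bright in all groups. Their 33 measured members summed to 115200 to 121800 on the linear scale in uninephrectomized SBH/y, 109300 to 116500 in uninephrectomized SBN/y, 118800 to 124300 in sham-operated SBH/y and 115200 to 123300 in sham-operated SBN/y. Between the uninephrectomized strains 12 were higher and 5 lower, led by Agmat, a mitochondrial agmatinase (1.53 ± 0.06), and the cystine transporter subunit Slc7a9 (0.50 ± 0.06). The 12 became 7 under quantile normalization, and the 5 became 2 when each array was centred on its median. Over the whole array 7044 and 6551 probe sets were called in these 2 fits, in place of 6663. Against sham-operated SBH/y 1 was higher and 7 lower, and in SBN/y 0 were higher and 3 lower. With the clock score as a covariate the counts were 8 and 1 between the strains, and 0 and 0 against sham-operated SBH/y. Between the sham-operated strains 5 of the 33 were higher and 1 lower, with Agmat at 1.44 ± 0.06 and Slc7a9 at 0.19 ± 0.06. Along Havcr1 their correlations were mostly negative in both uninephrectomized groups, with a median of -0.42 and 26 of 33 negative in SBH/y, and a median of -0.41 and 31 of 33 negative in SBN/y. Over all genes the median was -0.12 in SBH/y, with 43.3% positive, and -0.02 in SBN/y, with 48.4% positive.

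Markers of other nephron cells differed too. Of 16 podocyte genes 0 were higher and 7 lower between the uninephrectomized strains (11.9% of all genes lower), and 1 was higher and 7 lower against sham-operated SBH/y (5.51% lower). Between the sham-operated strains 3 were higher and 0 lower. Wt1, a podocyte transcription factor, was lower by limma in both (-0.35 ± 0.07, adjusted p = 0.000323, and -0.55 ± 0.07, adjusted p = 4.91e-06), as were Nphs1 (-0.33 ± 0.10, adjusted p = 0.0137, and -0.62 ± 0.10, adjusted p = 8.55e-05) and the actin-binding synaptopodin gene Synpo (-0.44 ± 0.06 and -0.34 ± 0.06). When the clock score was a covariate 3 were lower between the strains and 0 against sham-operated SBH/y. Wt1 then had -0.18 (adjusted p = 0.128) and -0.30 (adjusted p = 0.17) and Nphs1 -0.14 (adjusted p = 0.495) and -0.35 (adjusted p = 0.393), so both lost both calls, while Synpo passed between the strains (-0.39, adjusted p = 0.000539) and not against sham-operated SBH/y (-0.26, adjusted p = 0.328). By their second probe sets Wt1 passed in both contrasts (-0.23, adjusted p = 0.0385, and -0.27, adjusted p = 0.0314) and Nphs1 in the second only (-0.19, adjusted p = 0.154, and -0.56, adjusted p = 9.33e-05), and the other 2 probe sets of Synpo passed in neither. The median correlation of podocyte genes with Havcr1 was -0.60 in uninephrectomized SBH/y, with 14 of 16 negative, and 0.15 in uninephrectomized SBN/y, with 7 of 16 negative. Of 16 genes of the thick limb and distal tubule 1 was higher and 10 lower in the strain contrast, among them the calcium-sensing receptor gene Casr (-1.37 ± 0.06) and the kallikrein gene Klk1 (-0.73 ± 0.06), and 4 were higher and 1 lower against sham-operated SBH/y. These became 0 and 7 between the strains, and 0 and 0 against sham-operated SBH/y, with the clock score as a covariate. Between the sham-operated strains 0 were higher and 8 lower, with Casr at -1.12 ± 0.06. Their median correlation with Havcr1 was -0.33 in SBH/y and 0.28 in SBN/y.

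**Figure D5:**
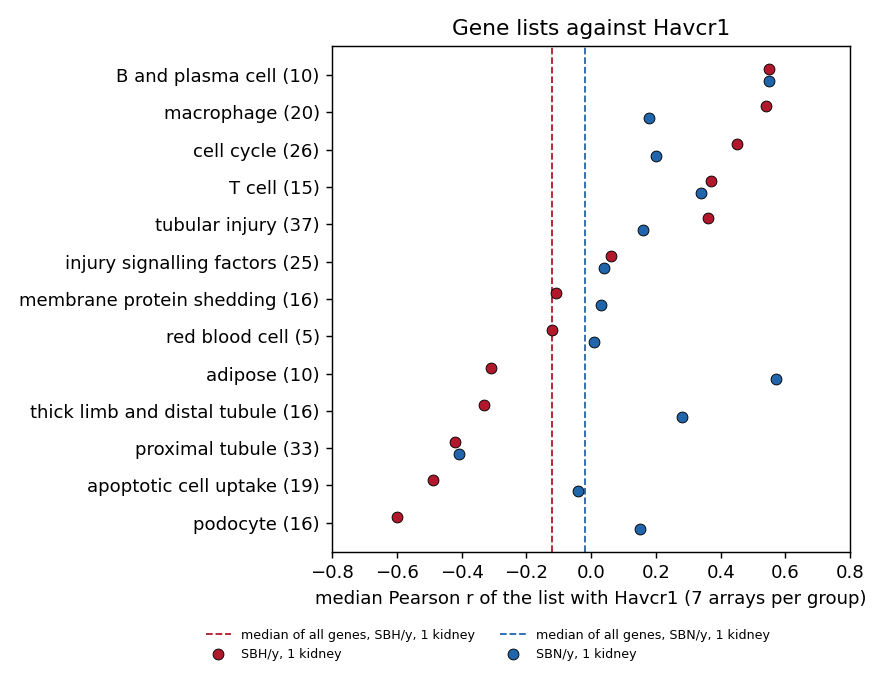
Median Pearson correlation with Havcr1 (x axis) of each gene list (y axis, number of measured genes in brackets) in uninephrectomized SBH/y and uninephrectomized SBN/y, 7 arrays each; dashed lines are the medians of all genes, -0.12 and -0.02. Podocyte genes stand at -0.60 in SBH/y and 0.15 in SBN/y, and B and plasma cell genes at 0.55 in both.

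Immune cell markers were examined because Havcr1 is also known on lymphocytes. Of 20 macrophage genes 16 were higher and 2 lower in the strain contrast after uninephrectomy, including the lysozyme gene Lyz2 (0.93 ± 0.07), the integrin gene Itgax (1.18 ± 0.08) and Cd68, a lysosomal protein of phagocytes (0.62 ± 0.08). Their summed linear level was 7614 to 9619 in uninephrectomized SBH/y, 4822 to 5621 in uninephrectomized SBN/y, 7511 to 9660 in sham-operated SBH/y and 4471 to 5756 in sham-operated SBN/y. The ranges of the 2 SBH/y groups overlapped, and so did those of the 2 SBN/y groups. Between sham-operated strains 12 of the 20 were higher and 2 lower, where 11.8% of all genes were higher and 9.69% lower. Against sham-operated SBH/y 6 macrophage genes were higher and 0 lower, and 0 and 0 with the clock score as a covariate. Without the 2 arrays with odd clock scores 10 were higher and 1 lower. Over the whole array 3098 probe sets were then called in that contrast, in place of 2558. The median correlation with Havcr1 was 0.54 in uninephrectomized SBH/y and 0.18 in uninephrectomized SBN/y.

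T cell and antibody genes come next. Of 15 T cell genes 1 was higher and 0 lower in the strain contrast, and 6 were higher and 0 lower against sham-operated SBH/y, including Cd3e of the T cell receptor complex (0.54 ± 0.07, adjusted p = 7.94e-06, though 0.19 with adjusted p = 0.135 by a second, dimmer probe set). Adding the clock score as a covariate left 0 higher in either contrast and 1 lower between the strains. Their summed level was 465.8 to 593.1 in uninephrectomized SBH/y, 481.3 to 583.7 in uninephrectomized SBN/y, 426.5 to 516 in sham-operated SBH/y and 475.3 to 537 in sham-operated SBN/y, and the 4 ranges overlapped. Of 10 B and plasma cell genes 2 were higher and 0 lower in each contrast, where 2 of 10 stands near the 14.9% of all genes higher between the strains. Jchain, the joining chain of secreted antibodies, averaged 8.02 in uninephrectomized SBH/y, 6.20 in uninephrectomized SBN/y, 6.84 in sham-operated SBH/y and 5.73 in sham-operated SBN/y. Its r with Havcr1 was 0.17 in uninephrectomized SBH/y (-0.07 to 0.84 with 1 array left out) and 0.27 in uninephrectomized SBN/y. The B and plasma cell genes had a median r of 0.55 in both groups, with 10 of 10 positive in SBH/y and 7 of 10 in SBN/y. T cell genes had medians of 0.37 in SBH/y and 0.34 in SBN/y, with 13 and 12 of 15 positive. Over all genes 43.3% were positive in SBH/y and 48.4% in SBN/y. Whether any Havcr1 signal came from immune cells was not tested.

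Cell cycle genes were also more often higher than lower. Of 26 measured, 15 were higher and 1 lower between the uninephrectomized strains, and 12 were higher and 0 lower against sham-operated SBH/y. Examples from the strain contrast are the mitotic kinesin gene Kif11 (1.28 ± 0.13) and the tubulin regulator Stmn1 (0.62 ± 0.05), and Mki67, the Ki-67 proliferation antigen, was higher by 0.29 ± 0.09 (adjusted p = 0.0142, and 0.0969 with the clock score as a covariate). Between the sham-operated strains 2 were higher and 0 lower, and these 2 were Kif11 (0.85 ± 0.13) and Stmn1 (0.46 ± 0.05). Uninephrectomized minus sham-operated SBH/y was 0.14 ± 0.13 for Kif11 (adjusted p = 0.579) and 0.17 ± 0.05 for Stmn1 (adjusted p = 0.0409). With the dimmest 40% of probe sets left out the numbers higher were 5 between the uninephrectomized strains and 4 against sham-operated SBH/y. List members among the dimmest cannot be called in that fit, and the number of members left was not counted. Over the whole array 6137 probe sets were then called in place of 6663 between the strains. Against sham-operated SBH/y there were 2813 in place of 2558. With the clock score as a covariate 4 were higher and 0 lower between the strains, and 0 in either direction against sham-operated SBH/y. The median correlation with Havcr1 was 0.45 in SBH/y and 0.20 in SBN/y.

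Genes that share functions of Havcr1 were counted last. Of 19 genes of apoptotic cell uptake 2 were higher and 5 lower in the strain contrast (14.9% and 11.9% of all genes), and 3 were higher and 2 lower against sham-operated SBH/y (4.85% and 5.51%). The 3 became 6 when arrays were centred on the median, quantile-normalized or filtered for dim probe sets. They became 7 with the replicate block and 0 with the clock score as a covariate. Over the whole array 2558 probe sets were called against sham-operated SBH/y. Under these settings in turn there were 2421, 2775, 2813, 3500 and 80. In the strain contrast the receptor tyrosine kinase gene Axl was higher by 0.69 ± 0.06 (adjusted p = 4.11e-11) and its bridging ligand Pros1 by 0.53 ± 0.06 (adjusted p = 8.91e-08), while the sister receptor gene Mertk was lower (-0.55 ± 0.06, adjusted p = 2.93e-09). These genes also passed between the sham-operated strains, with 0.27 ± 0.06 for Axl, 0.23 ± 0.06 for Pros1 and -0.33 ± 0.06 for Mertk. Of 16 genes of membrane protein shedding and its inhibitors, 5 were higher and 2 lower between the strains and 2 higher and 2 lower against sham-operated SBH/y. The 2 higher became 4 under median centring, quantile normalization or the block, and both counts became 0 with the clock score as a covariate. The sheddase gene Adam10 had a mean of 6.99 in uninephrectomized SBH/y and 7.22 in uninephrectomized SBN/y (-0.23 ± 0.07, adjusted p = 0.0231, and -0.15 with adjusted p = 0.326 with the clock score as a covariate). Of 25 injury signalling factors 10 were higher and 2 lower between the strains, with the transcription factor gene Runx1 at 1.16 ± 0.10 (adjusted p = 3.63e-10), and 6 were higher and 0 lower against sham-operated SBH/y, which became 1 and 0 with the clock score as a covariate. Runx1 was also higher in sham-operated SBH/y than in sham-operated SBN/y, by 0.73 ± 0.10 (adjusted p = 3.45e-06). The mRNA values say nothing of the amount of the protein or of its shed form.

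Fat and blood were checked as admixtures. The 10 adipose genes had 2 higher and 0 lower in the strain contrast, and 0 higher and 1 lower against sham-operated SBH/y. Their sum was 2174 to 3041 in uninephrectomized SBH/y and 1192 to 2874 in uninephrectomized SBN/y, and 2840 to 3212 in sham-operated SBH/y and 1293 to 2787 in sham-operated SBN/y. In uninephrectomized SBN/y all 10 adipose genes had a positive correlation with Havcr1, with a median of 0.57, and in uninephrectomized SBH/y 1 of 10 did, with a median of -0.31. Their part in the SBN/y correlations was not tested. The 5 red blood cell genes had 0 higher and 1 lower in each contrast, and median correlations of -0.12 in SBH/y and 0.01 in SBN/y.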

How the data were processed

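The deposited values are on the log2 scale, 1 per probe set and array, for 28 arrays. Per the submitters' processing notes GCOS and RMA were used; their versions are not given in the sources used here. RMA subtracts background, quantile-normalizes and summarises probe sets. A change in total RNA is therefore invisible, and low log2 values, such as those of Havcr1 outside uninephrectomized SBH/y, can be compressed toward background. The array medians lay between 5.72 and 5.77, any 2 arrays correlated at 0.985 to 0.997, and no 2 were identical. No scanner files were used here, so detection was not checked; the number of arrays limits the precision. Array control probe sets, 57 of them, were left out. Of the rest 20826 had 1 gene symbol, 436 several and 9780 none; symbols of 20758 were updated by gene ID and 2 by accession in RefSeq's GRCr8 table, and 66 kept the platform's name. For genes with more than 1 probe set, the one with the highest mean stood for the gene.

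Differences were fitted with limma 3.58.1 in R 4.3.3 (lmFit, eBayes), with 1 mean per group over all 28 arrays, and p-values were adjusted by Benjamini-Hochberg over all probe sets at a threshold of 0.05. The slope model held a mean and a slope on Havcr1 in each uninephrectomized group. List members were counted from these fits with no test of the list. Panel correlations used exact permutation in Python 3.11.15. The scripts were tested on simulated data. The text names Havcr1 and its family, the panel, the 8 genes most correlated over 28 arrays, the 5 lowest p of each slope sign, up to 3 members of each list by p in the strain contrast after uninephrectomy, and 5 measured neighbours on each side; any other gene with values was chosen after its values were seen. Havcr1, the panel and the lists were chosen with earlier results of these data known. Alternatives were median centring, quantile normalization, a filter on dim probe sets, a trended and robust variance, a replicate block, the clock score as a covariate, and arrays left out.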

Additional observations from a re-analysis of the deposited data

Results flagged for a closer look

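Among 48 groups of 7 arrays checked (each of the main genes and the clock score in each of the 4 groups), an array stood apart from the rest of its group in 8, by the gap to its nearest neighbour over the group's range (above 0.568), where chance gives about 1 in 20. The clock gene score was at 0.69 in 1 uninephrectomized SBH/y array and at -0.88 in 1 uninephrectomized SBN/y array. Lcn2 had a highest value of 4.24 in uninephrectomized SBH/y, in the array that was also highest in Havcr1, and of 4.08 in uninephrectomized SBN/y. Clu had a highest value of 10.47 in uninephrectomized SBH/y, Nphs1 a highest of 6.92 in sham-operated SBN/y, Slc34a1 a lowest of 12.7 in uninephrectomized SBN/y and Mmp9 a highest of 6.45 in sham-operated SBH/y.

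Uninephrectomy effects differed between SBH/y and SBN/y by limma's interaction test for 8 of the panel genes, where 0.964% of all genes had a higher and 1.1% a lower interaction. It was 0.77 for Spp1 (adjusted p = 0.00318), 0.54 for Clu (adjusted p = 0.00315), 0.87 for Gpnmb (adjusted p = 0.00295), 0.62 for Timp1 (adjusted p = 0.00442) and 0.55 for Cd44 (adjusted p = 0.00772). It was -0.55 for Nphs1 (adjusted p = 0.0364), 0.49 for Col1a1, a collagen chain (adjusted p = 0.0397), and 0.71 for Jchain (adjusted p = 0.048). The probe sets of Col1a1 disagreed. For uninephrectomized minus sham-operated SBH/y the first gave 0.46 (limma adjusted p = 0.00101) and the second -0.02 (adjusted p = 0.945). With the clock score as a covariate limma called 0 interactions over the whole array, and the part of the clock in them was not tested.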

How the results depend on the processing

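The Havcr1 differences kept their direction and moved by less than the pooled within-group SD of 0.49 under every alternative tried. Leaving out each array in turn gave 2.18 to 2.55 for uninephrectomized SBH/y minus SBN/y, 2.57 to 2.94 for uninephrectomized minus sham-operated SBH/y, 0.45 to 0.67 for the same in SBN/y, 0.10 to 0.22 for sham-operated SBH/y minus SBN/y and 2.03 to 2.39 for the interaction. With group medians in place of means the first was 2.11 and the interaction 1.91. The number of probe sets with a slope on Havcr1 in uninephrectomized SBH/y was 2 under quantile normalization and 3 with a trended and robust variance, and 0 to 182 with 1 array left out, where 182 came without replicate 5. In SBN/y and for the difference of slopes it was 0 under each. With the clock score as a covariate the probe sets called numbered 4356 in place of 6663 for uninephrectomized SBH/y minus SBN/y, 80 in place of 2558 for uninephrectomized minus sham-operated SBH/y and 0 in place of 439 for the interaction; the cause was not tested. Without the 2 arrays with odd clock scores, an alternative chosen after seeing the data, the interaction had 977. Nothing in the labels says that replicate numbers pair the samples. Same-number correlations of deviations ranged from -0.09 to 0.59, with means of 0.10 to 0.20 per pair of groups against -0.03 to -0.02 for other numbers, and 2 to 5 of 7 samples correlated best with their own number. Since not every pair was above 0.1, the numbers were not taken as a pairing. The same-number mean was the higher in every pair of groups, which hints at something shared. What samples of the same number share was not tested. With the replicate block the Havcr1 differences were 2.40, 2.79, 0.54 and 0.15, and the interaction 2.25. The probe sets called rose in every contrast. They were 7567 in place of 6663 for uninephrectomized SBH/y minus SBN/y, and 6689 in place of 5570 for sham-operated SBH/y minus SBN/y. For uninephrectomized minus sham-operated they were 3500 in place of 2558 in SBH/y and 280 in place of 144 in SBN/y. The interaction had 812 in place of 439. The panel correlations were computed without a block. Some correlations in uninephrectomized SBN/y changed sign. Lcn2 had rho = -0.11, and its r was -0.51 to 0.56 with 1 array left out. Timp1 had rho = 0.07, r = 0.48 without the 2 farthest arrays and -0.47 to 0.70 with 1 left out, and Nphs1 had -0.06 to 0.61. With 7 arrays a group, correlations of moderate size could not be told from 0.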
